A study of Mus musculus with 12 samples.

Results

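The transcripts of 45 genes whose proteins carry out mitosis were measured by bulk RNA-seq in mouse myeloid-derived suppressor cells (MDSCs). The genes were taken by symbol from a list of names, chosen when earlier results of these data were known, and cover entry into mitosis, spindle assembly, the spindle checkpoint, the kinetochore, the chromosomal passenger complex, chromosome separation, condensin and cytokinesis. Kinesins were left out, apart from the kinetochore motor gene Cenpe. All 45 were among the 35303 symbols of the count table and among the 17676 symbols tested, and the lowest count of any of them in any library was 63. MDSCs are immunosuppressive myeloid cells, and these were grown with IL-6 and GM-CSF from bone marrow of female wild-type C57BL/6 mice aged 6 to 10 weeks and isolated as CD11b+Gr1+ cells, a gate that holds both granulocytic and monocytic cells. The 3 groups, of 4 libraries each, were unmodified MDSCs (MDSC), MDSCs conjugated with blank nanoparticles (NPs) of the polymer PLGA (MDSC-NP-Blk) and MDSCs conjugated with PLGA NPs that carried rapamycin (CITED). NPs were attached by click chemistry to azide-bearing sugars on the cell surface, and whether the unmodified cells were also azide-labelled is not given in the sources used here. Cells of every group spent 24 hours in culture with IL-6 at 40 ng/ml before RNA was taken; the labels call the libraries biological replicates without naming the cultures or mice behind them, and a tissue field reads CNS although the cells came from marrow culture.

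In mitosis, the kinase Cdk1 bound to cyclin A or cyclin B drives chromosome condensation and spindle assembly. Kinetochores then attach chromosomes to microtubules, and the spindle checkpoint holds back the anaphase-promoting complex (APC/C) until every chromosome is attached. The APC/C activator Cdc20 next directs the destruction of securin and cyclin B, which frees separase to cut cohesin, and the cell divides. Most of these genes are transcribed in G2 and mitosis, so their transcripts are abundant in cycling cells such as marrow progenitors and scarce in mature, non-dividing myeloid cells. Rapamycin inhibits the mTOR kinase, which couples nutrients and growth factors to cell growth.

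Nearly all mitosis genes were lower with blank NPs than in unmodified cells and lower again in CITED. Their summed level, in CPM (counts scaled to a common library total) with TMM factors, was 4230, 3703, 4083 and 4040 in the 4 MDSC libraries, 2435, 2734, 2779 and 2508 in MDSC-NP-Blk, and 1342, 1334, 1410 and 1371 in CITED. The 3 groups did not overlap in this sum. The means were 4014 ± 223, 2614 ± 168 and 1364 ± 34.5 (SD, n = 4 each), so that MDSC-NP-Blk held 65.1% of the MDSC level (1.54-fold lower) and CITED 34.0% (2.94-fold lower). Scaled by library size alone, the ratios of MDSC to MDSC-NP-Blk and to CITED were 1.84 and 3.56. In bulk RNA, fewer dividing cells and less mitotic RNA per cell cannot be told apart.

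**Figure D1:**
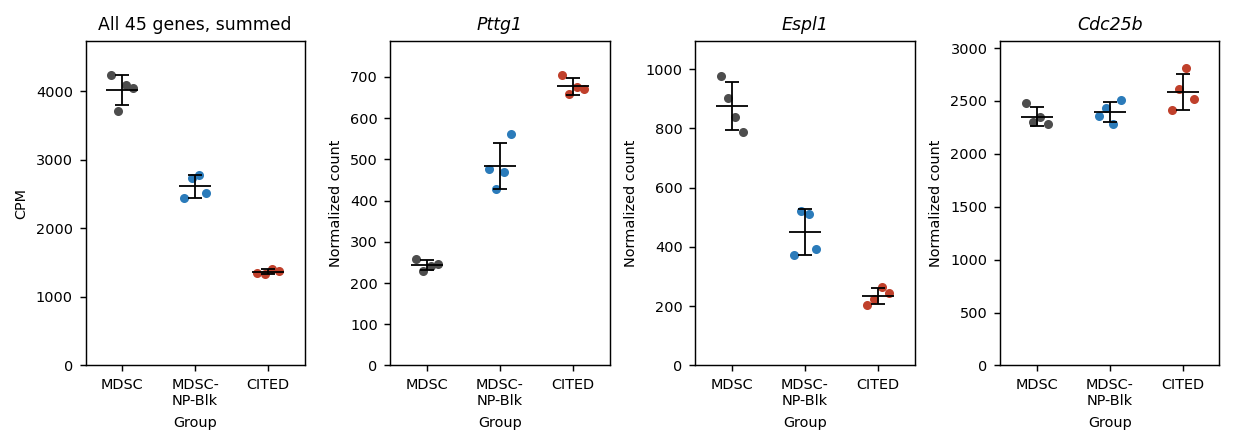
Summed level of the 45 mitosis genes (left, CPM) and normalized counts of Pttg1, Espl1 and Cdc25b in MDSC, MDSC-NP-Blk and CITED. Points are libraries, long bars the mean and error bars the SD (n = 4); the sum steps down from 4014 to 2614 to 1364, as does Espl1, whereas Pttg1 steps up and Cdc25b overlaps between groups.

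A gene was called when edgeR's quasi-likelihood test, over all symbols, gave an adjusted p below 0.05 together with a log2 fold change of 1 or more in either direction. In CITED against MDSC, 40 of 45 mitosis genes were called lower, where 6.70% of all symbols were, and 43 of 45 were lower at the adjusted p alone, where 22.2% of all symbols were. Pttg1 was called higher (3.28% of all symbols), and 2 genes, Pttg1 and Cdc25b, were higher at the adjusted p alone (22.2%). The median log2 fold change of the 45 genes was −1.68, against −0.05 over all symbols tested, and the genes ranged from −2.56 for Knl1 to 1.47 for Pttg1. Every CITED library lay below every MDSC library for 43 of the 45 genes. The share of all symbols separated in this way is not given here, so this count has no background beside it.

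With blank NPs the change was smaller and few genes reached the fold threshold. In MDSC-NP-Blk against MDSC, 5 of 45 genes, Knl1, Anln, Bub1, Ect2 and Smc2, were called lower (2.86% of all symbols) and 41 were lower at the adjusted p alone (18.6%). No mitosis gene was called higher, where 1.88% of all symbols were, and Pttg1 was higher at the adjusted p alone (19.9% of all symbols). The median log2 fold change was −0.63, against −0.03 over all symbols. Birc5, Ube2c and Cdc25b did not pass the test. The count of 5 became 9 without MDSC-NP-Blk library 3, with Foxm1, Hmmr, Espl1 and Top2a added, 3 without MDSC-NP-Blk libraries 1 and 4, and 16 with library size as the only scaling. The shares of all symbols called under these settings are not given here.

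CITED also lay below MDSC-NP-Blk, so the 2 steps ran the same way. In CITED against MDSC-NP-Blk, 26 of 45 genes were called lower (2.00% of all symbols) and 43 were lower at the adjusted p alone (11.4%). No mitosis gene was called higher (0.651% of all symbols), and Pttg1 was higher at the adjusted p alone (10.5%). The median log2 fold change was −1.04, against 0.00 over all symbols. Every CITED library lay below every MDSC-NP-Blk library for 43 genes, every MDSC-NP-Blk library lay below every MDSC library for 41, and 41 genes fell at both steps with no overlap, all but Birc5, Ube2c, Pttg1 and Cdc25b. The shares of all symbols separated in these ways are not given here. The comparisons share libraries, each group standing in 2 of them, so they are not independent of each other.

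**Figure D2:**
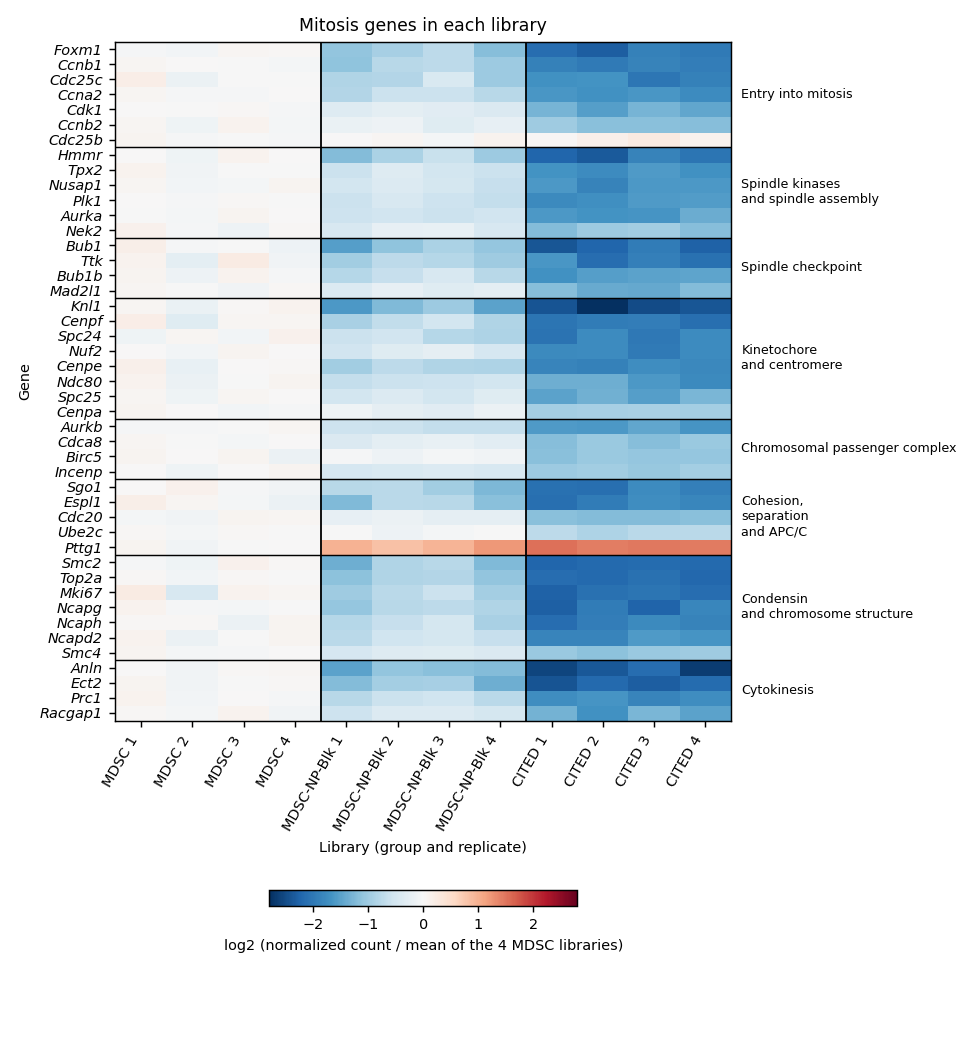
Normalized count of each mitosis gene in each library as the log2 ratio to the mean of the 4 MDSC libraries (colour, blue lower and red higher), with genes grouped by role in rows and libraries in columns. The MDSC-NP-Blk columns are mostly pale blue and the CITED columns darker for all genes but Cdc25b and Pttg1, and Birc5 and Ube2c stay near white with blank NPs.

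Between 20604809 and 37855478 counts were assigned to genes per library, and 3 counts, the smallest number taken as detectable, amounted to between 7.92e-06% and 1.46e-05% of a library (counting error only). MDSC-NP-Blk libraries 1 and 4 stood apart from 2 and 3, and without them 3, 32 and 28 mitosis genes, in place of 5, 26 and 25, were called lower with blank NPs, lower in CITED against MDSC-NP-Blk and lower at the second step than at the first, by the tests described with those counts. The shares of all symbols called without libraries 1 and 4 are not given here, so these changes in count have no background beside them. Summed over genes, the mitosis transcripts took 0.414% to 0.477% of all counts in MDSC, 0.228% to 0.263% with blank NPs and 0.124% to 0.132% in CITED.

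Most markers of early myeloid progenitors were also lower in CITED. The 7 markers (Mpo, Elane, Prtn3, Ctsg, Kit, Cd34 and Ms4a3) summed to 2773 to 3013 CPM in MDSC, 1474 to 1586 with blank NPs and 382 to 420 in CITED, and 5 of 7 were called lower in CITED against MDSC, 2 of 7 in MDSC-NP-Blk against MDSC and 5 of 7 in CITED against MDSC-NP-Blk. The 5 left out Kit, which was higher with blank NPs (log2 0.49, adjusted p = 1.09e-06) and stood at −0.14 in CITED against MDSC (adjusted p = 0.127), and Cd34, whose log2 differences were −0.08 and −0.02 (adjusted p = 0.675 and 0.925). No marker was at 0. The part of these markers in the fall of the mitosis genes was not tested. The 8 markers of MDSCs and mature myeloid cells summed to 25590 to 29150 CPM in MDSC, 34540 to 36520 with blank NPs and 27410 to 31260 in CITED. Most of this sum was S100a8 and S100a9, and all but Ly6c1 were abundant in all groups. In CITED against MDSC, Csf3r was called higher (log2 1.54) and the scarce Ly6c1 lower (−1.04). Ly6c2 was lower at the adjusted p alone (−0.35), and Itgam (CD11b), Ly6g and Itgb2 were higher (0.43, 0.22 and 0.34). S100a8 and S100a9 did not pass the test in that comparison.

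Markers of other cells were scarce or had steadier sums, though single markers moved. The 5 B cell markers summed to 11.0 to 15 CPM in MDSC, 7.12 to 10.2 with blank NPs and 2.90 to 4.07 in CITED, and all 5 were called lower in CITED against MDSC. Their part in the result was not tested either. Erythroid, T cell and stromal markers summed to at most 5.64, 2.57 and 5.60 CPM in any library. The 5 mast cell and basophil markers summed to 204 to 221, 222 to 256 and 148 to 153 CPM in MDSC, MDSC-NP-Blk and CITED, and the 6 dendritic cell markers to 436 to 475, 296 to 313 and 373 to 415. Of the former, Ms4a2 was called lower in CITED against MDSC (log2 −1.14). The dendritic cell sum was almost wholly Itgax (−0.22 in that comparison). Among its scarce markers, Clec9a was called higher (1.29) and Siglech, with few counts in any library, lower (−5.70).

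The sequence upstream of the mitosis genes was read for 2 motifs known from promoters of G2 and mitosis genes: the CCAAT box and TTTGAA, a form of the cell cycle homology region. In the 250 bases before the canonical start (GENCODE M39, GRCm39), CCAAT stood on either strand in 22 of 45 genes (48.9%), against 36.1% of the 15043 protein-coding symbols tested, and at least 2 copies stood in 14 (31.1%, against 11.5%). TTTGAA stood in 10 (22.2%, against 13%), and both motifs in 9 (20%, against 4.8%). A match is a run of letters and not a measured binding site. The last 150 bases before the start are shown for 3 genes with both motifs in that stretch (Ccnb2, Cdk1 and Aurkb), for Top2a, the mitosis gene highest per kilobase, and for Knl1, which fell most. They run 5′ to 3′ on the strand of the gene, with CCAAT or its complement ATTGG and TTTGAA or its complement TTCAAA in capitals.
Ccnb2, chr9:70328875-70329024, minus strand: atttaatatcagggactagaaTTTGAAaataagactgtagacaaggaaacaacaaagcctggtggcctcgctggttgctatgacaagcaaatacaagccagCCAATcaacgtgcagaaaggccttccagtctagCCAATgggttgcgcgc
Cdk1, chr10:69188769-69188918, minus strand: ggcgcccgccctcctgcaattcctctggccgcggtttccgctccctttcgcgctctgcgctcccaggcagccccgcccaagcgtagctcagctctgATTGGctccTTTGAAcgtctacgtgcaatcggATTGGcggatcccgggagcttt
Aurkb, chr11:68936317-68936466, plus strand: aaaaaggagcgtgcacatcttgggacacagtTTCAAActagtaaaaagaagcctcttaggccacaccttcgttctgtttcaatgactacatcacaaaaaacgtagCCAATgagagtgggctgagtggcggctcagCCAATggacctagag
Top2a, chr11:98915042-98915191, minus strand: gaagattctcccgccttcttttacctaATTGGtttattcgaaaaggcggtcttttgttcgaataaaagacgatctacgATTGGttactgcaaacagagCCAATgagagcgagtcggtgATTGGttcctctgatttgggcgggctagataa
Knl1, chr2:118877450-118877599, plus strand: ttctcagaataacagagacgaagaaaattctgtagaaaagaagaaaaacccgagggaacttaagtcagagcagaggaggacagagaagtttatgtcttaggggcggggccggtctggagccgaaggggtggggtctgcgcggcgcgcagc
Top2a had 4 CCAAT boxes in this stretch, and Ccnb2, Cdk1 and Aurkb 2 each. Knl1, with the largest fall of the 45, had neither motif in these bases. These 5 genes were chosen with their values known.

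Of the 7 genes of entry into mitosis, 6 were called lower in CITED against MDSC. Foxm1, the transcription factor that activates many G2 and mitosis genes, had normalized counts of 1098, 1060, 1156 and 1149 in MDSC, 515, 582, 674 and 491 with blank NPs and 253, 226, 300 and 283 in CITED. The libraries of the 3 groups did not overlap, and the log2 fold change in CITED against MDSC was −2.07 (standard error (SE) 0.0965, adjusted p = 6.42e-19 by edgeR), a 4.19-fold lower level. Cdk1 itself, the mitotic kinase, went from 2294, 2248, 2339 and 2234 through 1770, 1882, 1815 and 1732 to 929, 785, 927 and 836. Its fall was 2.62-fold (log2 −1.39, SE 0.0633, adjusted p = 3.38e-19).

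The cyclins fell unequally. Ccnb2, a B-type cyclin and per kilobase of transcript the most abundant gene of this role in MDSC (1267 normalized counts per kilobase), had 2079, 1831, 2142 and 1933 normalized counts in MDSC, 1747, 1818, 1580 and 1705 with blank NPs and 999, 883, 894 and 874 in CITED. MDSC-NP-Blk stayed just under MDSC (log2 −0.22, SE 0.0651, adjusted p = 0.00618), and CITED lay well below both (log2 −1.13 against MDSC, SE 0.0674, adjusted p = 4.37e-16). Ccnb1, the other B-type cyclin, fell by 0.90 on the log2 scale with blank NPs and by 1.92 in CITED against MDSC, and Ccna2, cyclin A2, by 0.69 and 1.68. The ratio of Ccnb1 to Ccnb2 per length was 0.706 to 0.836 in MDSC, 0.396 to 0.579 with blank NPs and 0.409 to 0.465 in CITED, a comparison chosen after the values were seen. Ccnb1 shares 46.2% of its 31-base words with other transcripts, chiefly the pseudogene Ccnb1-ps, so its count is less certain.

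The 2 Cdk1-activating phosphatases of the Cdc25 family parted ways. Cdc25b, which starts Cdk1 activation, had 2484, 2297, 2344 and 2284 normalized counts in MDSC, 2360, 2431, 2280 and 2507 with blank NPs and 2413, 2610, 2815 and 2517 in CITED. The groups overlapped, and the log2 difference in CITED against MDSC was 0.14 (SE 0.0567, adjusted p = 0.0469). That value changed sign to −0.14 with library size as the only scaling, and Cdc25b no longer passed the test with DESeq2 size factors or without MDSC library 2, 3 or 4, MDSC-NP-Blk library 2 or CITED library 2, 3 or 4, where 1 library at a time left it between 0.09 and 0.17. Cdc25c, which acts as mitosis begins, was scarcer per kilobase (143 against 306 in MDSC) and fell by 1.81 on the log2 scale in CITED against MDSC (SE 0.147, adjusted p = 1.23e-12).

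All 6 genes of spindle kinases and spindle assembly were called lower in CITED against MDSC. Hmmr, a microtubule-associated protein of the spindle, had the largest fall of this role, from 1821, 1670, 1934 and 1811 in MDSC through 775, 975, 1168 and 899 in MDSC-NP-Blk to 386, 355, 494 and 438 in CITED. The groups did not overlap, and MDSC-NP-Blk libraries ranged from 775 to 1168, a coefficient of variation of 17.2%. The log2 fold change in CITED against MDSC was −2.11 (SE 0.0985, adjusted p = 6.48e-19).

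Plk1, the polo-like kinase that acts from centrosome maturation to cytokinesis, went from 2099, 2047, 2128 and 2065 through 1373, 1521, 1392 and 1313 to 604, 635, 694 and 703, and no group overlapped another (log2 −1.66 in CITED against MDSC, SE 0.0675, adjusted p = 1.82e-20). Nek2, a kinase of centrosome separation, changed least of the 6, from 670, 601, 553 and 630 through 453, 520, 529 and 449 to 264, 304, 314 and 268. Its log2 fold change was −1.09 (SE 0.0941, adjusted p = 5.06e-12). Aurka, the centrosomal Aurora kinase, Tpx2, its activator on spindle microtubules, and Nusap1, a microtubule-bundling protein, had log2 fold changes of −1.57, −1.67 and −1.66. Plk1 shares 15% of its 31-base words, chiefly with the pseudogene Plk-ps1.

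The spindle checkpoint genes were all called lower in CITED against MDSC, 4 of 4. Bub1, a checkpoint kinase at the kinetochore, had 1698, 1478, 1508 and 1362 normalized counts in MDSC, 519, 688, 812 and 712 with blank NPs and 288, 323, 386 and 313 in CITED. It was among the 5 genes called lower with blank NPs alone (log2 −1.14, SE 0.0973, adjusted p = 7.88e-12), and 51.9% of its log2 fall was already present there, the highest share among the 43 genes that fell. Mad2l1, which binds and inhibits Cdc20, changed least of the 4, from 1865, 1786, 1687 and 1832 through 1371, 1530, 1409 and 1479 to 784, 677, 667 and 771 (log2 −1.31 in CITED against MDSC, SE 0.0691, adjusted p = 1.79e-17). Its share with blank NPs was 23.5%. Bub1b, or BubR1, and Ttk, the Mps1 kinase that starts the checkpoint, had log2 fold changes of −1.56 and −1.93.

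At the kinetochore and centromere, 7 of 8 genes were called lower in CITED against MDSC. Knl1, the outer kinetochore scaffold that recruits Bub1 and located on chromosome 2 from 118877598 to 118935982 (GRCm39, plus strand), had 1060, 898, 1044 and 1100 normalized counts in MDSC, 336, 434, 509 and 360 with blank NPs and 193, 127, 180 and 195 in CITED. Its log2 fold change of −2.56 (SE 0.120, adjusted p = 7.11e-19), a 5.88-fold lower level, was the largest among the 45 genes, as was its log2 fold change with blank NPs, −1.32 (SE 0.109, adjusted p = 4.11e-12). The groups did not overlap at either step. With the length trend described below removed, Bub1 (−1.13) and Anln (−1.12) fell more with blank NPs than Knl1 (−1.10). In CITED against MDSC, Knl1 and Anln then both stood at −2.24.

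Cenpa had the smallest change of this role. Cenpa, the histone H3 variant that marks centromeres, had 2045, 1950, 1821 and 1888 normalized counts in MDSC, 1773, 1628, 1545 and 1709 with blank NPs and 993, 1017, 1025 and 993 in CITED. Its log2 fold change in CITED against MDSC, −0.94 (SE 0.0625, adjusted p = 8.84e-15), passed the test but not the fold threshold. Nuf2, a subunit of the Ndc80 complex that binds microtubules, had 1211, 1146, 1271 and 1210 in MDSC, 833, 961, 1020 and 875 with blank NPs and 349, 355, 307 and 355 in CITED, and its fall from MDSC-NP-Blk to CITED, 1.44 on the log2 scale, was the largest of that comparison among the 45 genes.

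The other subunits of that complex, Ndc80, Spc24 and Spc25, had log2 fold changes in CITED against MDSC of −1.53, −1.89 and −1.41, and from MDSC-NP-Blk to CITED of −0.94, −1.20 and −0.98. Cenpe, a kinesin-like motor that moves chromosomes to the spindle equator, and Cenpf, a large outer kinetochore protein, had −1.82 and −2.01 in CITED against MDSC. Ndc80 and Spc24 share 17.9% and 13.3% of their 31-base words with other transcripts. These kinetochore genes did not overlap between MDSC and CITED in any library.

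The chromosomal passenger complex corrects faulty attachments, and 3 of its 4 genes were called lower in CITED against MDSC. Aurkb, its kinase, had the largest fall, from 1522, 1529, 1556 and 1618 through 1041, 1026, 975 and 984 to 518, 510, 565 and 499 (log2 −1.57, SE 0.0693, adjusted p = 1.41e-19). Incenp, its scaffold, went from 2794, 2541, 2787 and 2898 through 1980, 2058, 2117 and 2027 to 1363, 1403, 1326 and 1419. The groups did not overlap, and its log2 fold change of −0.999 (SE 0.0570, adjusted p = 1.35e-16) missed the fold threshold by less than its SE. It was called without MDSC library 2 (−1.04), MDSC-NP-Blk library 1, 3 or 4 (just past −1) or CITED library 2 or 4 (−1.01). With the length trend described below removed, Incenp lay further from the threshold, at −0.77.

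The 2 remaining subunits had log2 differences of −0.08 and −0.30 with blank NPs. Birc5, or survivin, had 1076, 1031, 1071 and 914 normalized counts in MDSC, 997, 930, 991 and 951 with blank NPs and 452, 500, 479 and 480 in CITED. MDSC and MDSC-NP-Blk overlapped (log2 −0.08, SE 0.0721, adjusted p = 0.390), while every CITED library lay below both (log2 −1.02 against MDSC-NP-Blk, SE 0.0759, adjusted p = 1.15e-12). Cdca8, or borealin, the gene of this complex highest per kilobase in MDSC, went from 1810, 1733, 1678 and 1755 through 1310, 1443, 1500 and 1414 to 768, 855, 767 and 845, without overlap.

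Among the genes of cohesion, chromosome separation and the APC/C, securin went against the rest. Pttg1, which encodes securin, the inhibitor of separase, lies on chromosome 11 from 43311071 to 43321000 (GRCm39, minus strand). It had 257, 229, 242 and 247 normalized counts in MDSC, 476, 429, 470 and 561 with blank NPs and 705, 657, 674 and 671 in CITED. It rose at each step without overlap, by 0.98 on the log2 scale with blank NPs (SE 0.0923, adjusted p = 7.7e-11), by 0.49 from there to CITED (SE 0.0877, adjusted p = 5.21e-05) and by 1.47 in all (SE 0.0916, adjusted p = 1.37e-15), a 2.77-fold higher level. The blank NP change reached the fold threshold without MDSC library 1 (1.01) or MDSC-NP-Blk library 2 (1.04).

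Espl1, which encodes separase itself, moved the other way, from 976, 904, 838 and 787 through 374, 521, 513 and 392 to 204, 226, 264 and 246 (log2 −1.90 in CITED against MDSC, SE 0.107, adjusted p = 1.13e-16). Per length, the ratio of Espl1 to Pttg1 was 0.328 to 0.407 in MDSC, 0.0719 to 0.125 with blank NPs and 0.0298 to 0.0402 in CITED. The ratio did not overlap between groups, and this comparison was chosen after the values were seen. Dividing by length does not remove the length trend between libraries described below, and these transcripts differ widely in length (7401 and 762 bases). With that trend removed, Espl1 and Pttg1 lay closer together in CITED against MDSC, at −1.61 and 1.21.

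Ube2c, the ubiquitin-conjugating enzyme of the APC/C, was nearly as abundant per kilobase in MDSC as Top2a (2121 against 2146) and changed least among the 43 genes that fell. It had 2088, 1988, 2104 and 2026 normalized counts in MDSC, 2046, 1861, 1986 and 2028 with blank NPs and 1234, 1136, 1211 and 1216 in CITED. MDSC and MDSC-NP-Blk overlapped (log2 −0.05, SE 0.0570, adjusted p = 0.504), and CITED lay below both (log2 −0.77 against MDSC, SE 0.0583, adjusted p = 1.91e-13). Only 6.73% of its log2 fall was present with blank NPs. That share rose once the length trend described below was removed, with log2 changes of −0.30 with blank NPs and −1.01 in CITED against MDSC. Ube2c shares 21.5% of its 31-base words with other transcripts.

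Cdc20, the APC/C activator, likewise moved mostly at the rapamycin step, from 1672, 1613, 1827 and 1791 through 1474, 1542, 1452 and 1459 to 770, 748, 743 and 763 (log2 −1.19 in CITED against MDSC, SE 0.0642, adjusted p = 3.03e-17). Sgo1, or shugoshin, which protects centromeric cohesion, had the largest fall of this role, from 472, 516, 462 and 438 through 275, 280, 239 and 198 to 111, 109, 140 and 124 (log2 −1.96, SE 0.121, adjusted p = 1.21e-15). Neither gene overlapped between groups. Cdc20 shares 26.5% of its 31-base words with other transcripts.

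All 7 genes of condensin and chromosome structure were called lower in CITED against MDSC, with a median log2 fold change of −2.06. Top2a, the topoisomerase that untangles sister chromatids, had 11597, 10690, 11554 and 11189 normalized counts in MDSC, 5058, 6242, 6384 and 5272 with blank NPs and 2575, 2476, 2642 and 2455 in CITED. In MDSC-NP-Blk it showed the split between libraries 1 and 4 and libraries 2 and 3. Mki67, whose protein coats mitotic chromosomes, had 13954, 8699, 12710 and 12433 in MDSC, with library 2 low, 6021, 7088, 7850 and 6202 in MDSC-NP-Blk, and 2489, 2812, 2897 and 2720 in CITED (log2 −2.13 in CITED against MDSC, SE 0.0915, adjusted p = 7.18e-20).

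The 2 ATPase subunits of condensin fell by different amounts. Smc2 had 2926, 2755, 3257 and 3068 normalized counts in MDSC, 1155, 1682, 1740 and 1280 with blank NPs and 642, 665, 670 and 667 in CITED (log2 −2.18 in CITED against MDSC, SE 0.0902, adjusted p = 2.68e-20). Smc4, its partner in every condensin complex, had 5552, 5053, 5142 and 5262, then 3780, 4114, 4139 and 3997, then 2562, 2387, 2568 and 2653 (log2 −1.05, SE 0.0515, adjusted p = 2.69e-18). Per length, the ratio of Smc2 to Smc4 was 0.421 to 0.506 in MDSC, 0.244 to 0.336 with blank NPs and 0.200 to 0.223 in CITED, without overlap, a comparison chosen after the values were seen.

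Smc2 was called lower with blank NPs (log2 −1.03, SE 0.0848), but stood at −0.99, −0.94 and −0.97 without MDSC library 3, MDSC-NP-Blk library 1 and MDSC-NP-Blk library 4, and at −0.81 without both of those MDSC-NP-Blk libraries. With the length trend described below removed, Smc2 stood at −0.92 with blank NPs and was not called. The other condensin I subunits, Ncapg, Ncapd2 and Ncaph, had log2 fold changes of −2.06, −1.72 and −1.92 in CITED against MDSC. All of them passed the test at both steps.

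The 4 cytokinesis genes were called lower in CITED against MDSC. Anln, or anillin, a scaffold of the contractile ring, had 1857, 1716, 1880 and 1907 normalized counts in MDSC, 655, 849, 814 and 788 with blank NPs and 309, 355, 417 and 291 in CITED (log2 −2.42, SE 0.0928, adjusted p = 4.19e-21). It was also called lower with blank NPs (log2 −1.24, SE 0.0860, adjusted p = 5.45e-14), as was Ect2, which activates RhoA for the ring (−1.10, SE 0.0840, adjusted p = 5.77e-13, and −0.95 without MDSC-NP-Blk libraries 1 and 4). Anln and Ect2 did not overlap between groups.

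Prc1, which bundles the microtubules of the central spindle and is the most abundant of the 4 per kilobase in MDSC, went from 2474, 2175, 2328 and 2244 through 1337, 1512, 1563 and 1361 to 690, 738, 638 and 689 (log2 −1.74, SE 0.0692, adjusted p = 9.87e-21). Racgap1, a subunit of centralspindlin, changed least, from 2190, 2049, 2263 and 1999 through 1431, 1621, 1619 and 1507 to 856, 654, 879 and 748 (log2 −1.44, SE 0.0760, adjusted p = 1.71e-17). Both were without overlap, and Racgap1 shares 11.1% of its 31-base words with other transcripts.

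**Figure D3:**
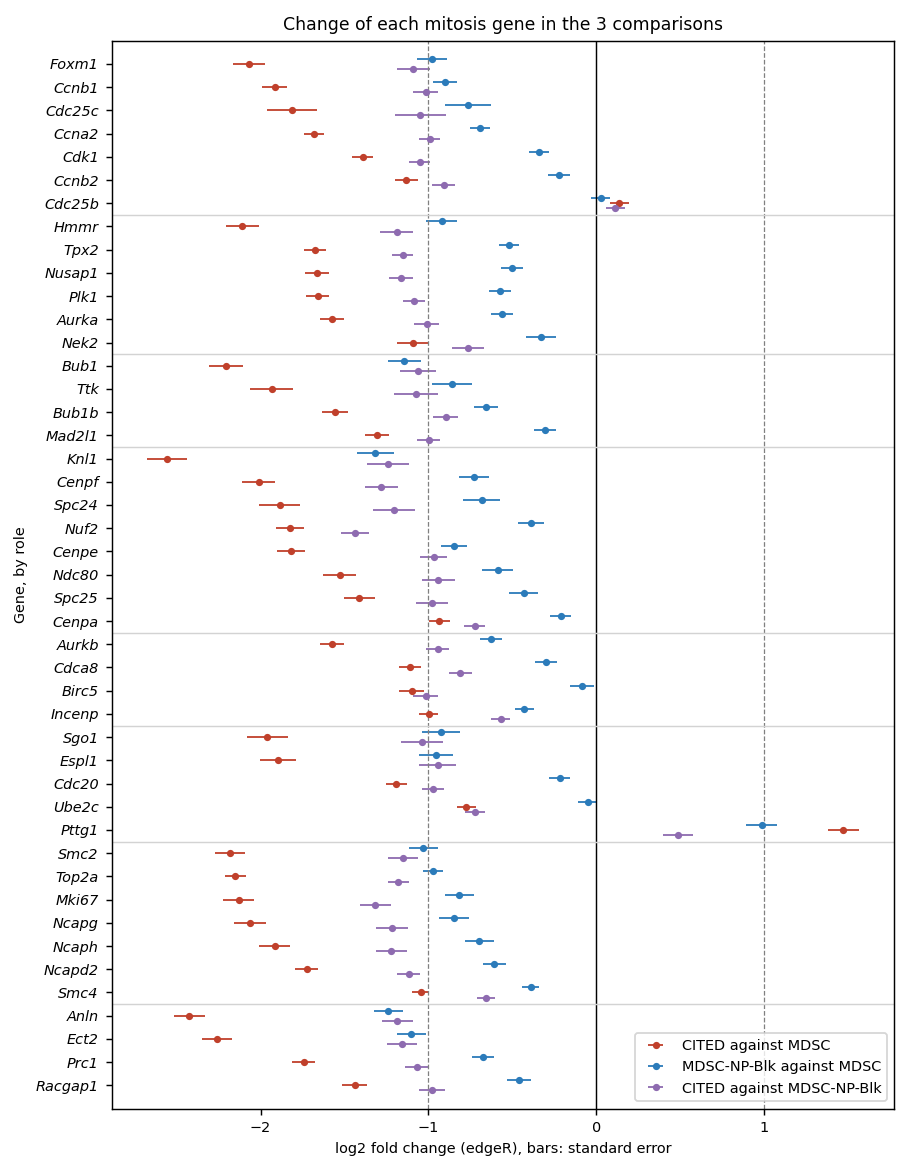
Log2 fold change of each mitosis gene by edgeR in CITED against MDSC (red), MDSC-NP-Blk against MDSC (blue) and CITED against MDSC-NP-Blk (purple), with bars of 1 SE and dashed lines at the fold threshold of 1. The blue points lie between 0 and −1.32 for all genes but Pttg1 and Cdc25b, and the red points beyond −1 for 40 genes.

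How the fall divided between the blank NP step (MDSC to MDSC-NP-Blk) and the rapamycin step (MDSC-NP-Blk to CITED) differed among the genes. The difference of the 2 log2 changes was tested in the same edgeR fit, as a contrast that accounts for the shared MDSC-NP-Blk libraries. The rapamycin step was lower than the blank NP step for 25 of 45 genes (13.6% of all symbols) and higher for none (9.22% of all symbols), with a median difference of −0.40. For 24 of the 25 genes the fall was larger at the rapamycin step, and the other, Pttg1, rose less there (difference −0.50, SE 0.154, adjusted p = 0.0164, and −0.33 and not past the test without MDSC-NP-Blk library 4). With library size as the only scaling, which lowers both conjugated groups against MDSC, the count of 25 became 9. The share of all symbols under that scaling is not given here.

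The 24 genes included Nuf2 (difference −1.05, SE 0.133, adjusted p = 1.69e-07), Birc5 (−0.93, SE 0.126, adjusted p = 4.99e-07), Cdc20 (−0.75, SE 0.107, adjusted p = 1.41e-06), Cdk1 (−0.71, SE 0.106, adjusted p = 2.81e-06) and Ube2c (−0.67, SE 0.0986, adjusted p = 2.4e-06). Mad2l1, Ccnb2, Nusap1 and Tpx2 followed with differences of −0.69, −0.69, −0.66 and −0.63. The rest were Ccna2, Plk1, Aurka, Nek2, Cenpa, Cenpf, Spc25, Aurkb, Cdca8, Ncapd2, Ncaph, Smc4, Mki67, Prc1 and Racgap1, between −0.55 and −0.27. The call for Nek2 was lost when MDSC library 2, 3 or 4, MDSC-NP-Blk library 2 or 3 or CITED library 1 or 4 was left out, with differences between −0.45 and −0.36, and Aurkb (−0.32, adjusted p = 0.0467) lost it in 10 of the 12 fits that each left out 1 library. Ccna2, Prc1, Smc4, Cenpf, Mki67 and Ncaph lost it without MDSC-NP-Blk library 3, with differences between −0.39 and −0.23. It was also lost for Ccna2 without MDSC library 3, MDSC-NP-Blk library 2 or CITED library 4 (−0.29, −0.23 and −0.27), for Smc4 without MDSC-NP-Blk library 2 or 4 or CITED library 2 (−0.24, −0.26 and −0.23) and for Prc1 without MDSC-NP-Blk library 2 (−0.35). Mki67 did not pass with the DESeq2 test or robust estimation (−0.48 and −0.50). Without MDSC-NP-Blk libraries 1 and 4 together, Spc25, Aurkb and Pttg1 did not pass (−0.52, −0.30 and −0.29). With the length trend described below removed, Spc25 and Aurkb did not pass either (−0.37 and −0.21, adjusted p = 0.0853 and 0.204 by edgeR). Top2a and Ncapg, not among the 25 genes, then passed (−0.25 and −0.41, adjusted p = 0.0241 and 0.0349).

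For 20 genes the difference between the steps did not pass the test, among them Knl1 (0.08, SE 0.200, adjusted p = 0.866), Bub1 (0.08, SE 0.175, adjusted p = 0.820), Anln (0.06, SE 0.155, adjusted p = 0.876) and Espl1 (0.01, SE 0.184, adjusted p = 1). Among the 43 genes that fell, 6.73% (Ube2c) to 51.9% (Bub1) of the log2 fall from MDSC to CITED was present with blank NPs, with a median of 38.3%. Knl1, Anln and Espl1 stood at 51.5%, 51.2% and 50.3%, beside 7.54% for Birc5 and 18.4% for Cdc20. These shares were taken without the length correction described below. With it, Ube2c stood at −0.30 with blank NPs and −1.01 in CITED against MDSC, and Birc5 at −0.32 and −1.33, so their shares were larger.

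**Figure D4:**
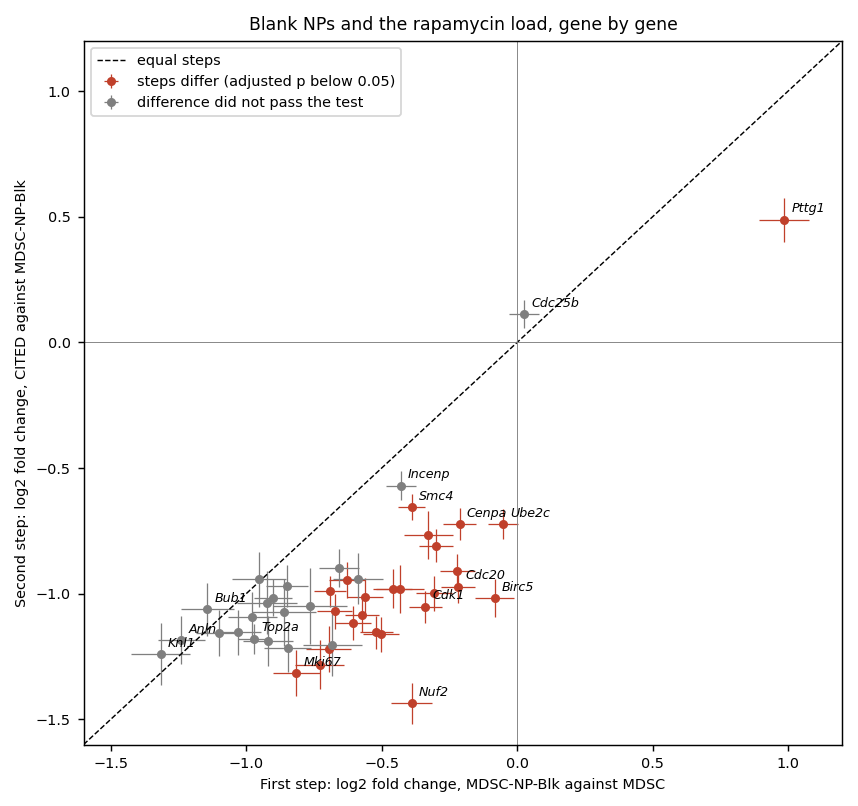
Log2 fold change of each mitosis gene at the first step (MDSC-NP-Blk against MDSC, horizontal) and at the second step (CITED against MDSC-NP-Blk, vertical), with bars of 1 SE; red marks the 25 genes whose steps differed at an adjusted p below 0.05. Most points lie below the dashed line of equal steps, Nuf2, Birc5 and Ube2c farthest from it, whereas Knl1, Anln and Bub1 lie close to it.

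The size of the change followed transcript length among the 45 genes. The Spearman correlation of the log2 fold change with the length of the canonical transcript was −0.52 in CITED against MDSC, −0.55 in MDSC-NP-Blk against MDSC and −0.35 in CITED against MDSC-NP-Blk (n = 45 genes of the same libraries, a description and no test). A trend with length was also present in the libraries as a whole. Over 10542 genes, the Spearman correlation between transcript length and expression, taken relative to the average of the libraries, was 0.220 to 0.349 in the MDSC libraries, −0.424 to 0.0924 with blank NPs and −0.342 to −0.187 in CITED. MDSC-NP-Blk libraries 1 and 4 had −0.424 and −0.244, and libraries 2 and 3 had −0.0463 and 0.0924.

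Once that trend was removed in each library, the correlations among the mitosis genes were −0.22, −0.22 and −0.25, and the counts called lower were 41, 4 and 26 in the 3 comparisons. The shares of all symbols called with the trend removed are not given here. With the trend removed, Birc5 and Ube2c passed the test with blank NPs (log2 −0.32 and −0.30, adjusted p = 0.000353 and 2.4e-05), so 43 genes were lower at the adjusted p alone. Cdc25b then stood at 0.44 in CITED against MDSC and at 0.24 with blank NPs, and Pttg1 at 1.21 and 0.71, its difference between the steps (−0.20) no longer past the test. Knl1 stood at −2.24, Cenpa at −1.13 and Ube2c at −1.01 in CITED against MDSC, and Smc4, at −0.95, no longer reached the fold threshold.

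**Figure D5:**
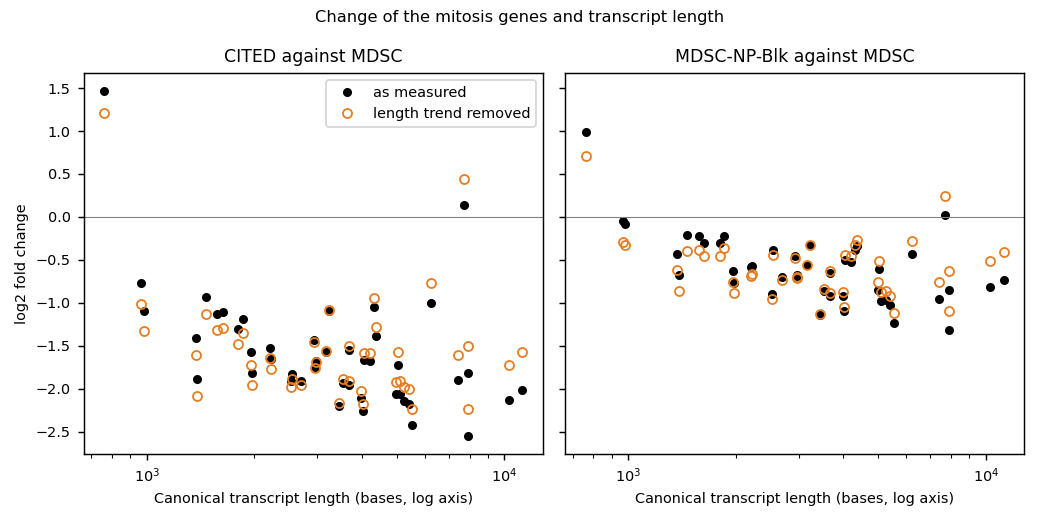
Log2 fold change of each mitosis gene against the length of its canonical transcript (bases, log axis) in CITED against MDSC (left) and MDSC-NP-Blk against MDSC (right), as measured (filled) and with the length trend of each library removed (open). The longer transcripts lie lower as measured, with Spearman correlations of −0.52 and −0.55 that become −0.22 and −0.22, and the shortest transcript, that of Pttg1, lies far above 0.

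The spread between libraries of a group was like that of other genes. The median coefficient of variation of the mitosis genes was 5.68% in MDSC, 8.40% with blank NPs and 7.21% in CITED, beside 5.61%, 7.73% and 6.33% over 8857 genes of at least the same mean level. Of the 45 genes, 39, 7, 26 and 26 were above their group mean in MDSC libraries 1 to 4, 8, 39, 33 and 11 in MDSC-NP-Blk and 19, 19, 30 and 26 in CITED. Smc2, Knl1, Cdc25c and Bub1 varied most in MDSC-NP-Blk, with coefficients of variation of 19.9%, 19.1%, 18.7% and 17.8%.

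A further 137 genes of mitosis were counted for comparison. In CITED against MDSC, 59 of them were called lower (6.70% of all symbols) and 1 higher (3.28%), and 109 and 17 passed at the adjusted p alone (22.2% each way), with a median log2 fold change of −0.84. With blank NPs 14 were called lower, where 2.86% of all symbols were (8 without MDSC-NP-Blk libraries 1 and 4, and 9 without library 1), and none higher (1.88%), with 87 and 14 at the adjusted p alone (18.6% and 19.9%), and a median of −0.39. The shares of all symbols called without those libraries are not given here. From MDSC-NP-Blk to CITED 24 were called lower (2.00%) and none higher (0.651%), with 94 and 6 at the adjusted p alone (11.4% and 10.5%), and a median of −0.45. The rapamycin step was lower than the blank NP step for 26 of the 137 genes and higher for 12, beside 13.6% and 9.22% of all symbols.

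In CITED against MDSC, many of the other kinetochore, checkpoint and mitotic kinase genes were called lower, where 6.70% of all symbols were. Of 32 other kinetochore genes 20 were called lower, among them Kntc1, a subunit that brings dynein to kinetochores (log2 −2.53, SE 0.103, adjusted p = 1.72e-20), and Hjurp, the chaperone of Cenpa (−1.48, SE 0.0529, adjusted p = 6.46e-22). Cenpb, which binds centromeric repeats, was called higher (1.00, SE 0.0510, adjusted p = 5.89e-18), with 2434 ± 63.3 normalized counts in MDSC and 4884 ± 21.1 (SD, n = 4 each) in CITED. Of 16 other checkpoint and mitotic kinase or phosphatase genes 10 were called lower, among them Plk4, the kinase of centriole duplication (−2.09), and Cdc25a (−1.76), which also acts at entry into S phase.

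Genes of the spindle, condensin II and cohesin lists were nearly all lower at the adjusted p alone in CITED against MDSC, 26 of 27, 3 of 3 and 13 of 14. Of all symbols, 22.2% were lower at the adjusted p alone and 6.70% were called lower. Of 27 other spindle and centrosome genes 13 were called lower, among them Dlgap5, a spindle assembly factor (−1.97), and Ckap5, a microtubule polymerase (−1.44). Of 3 condensin II subunits, Ncapg2 and Ncapd3 were called lower (−1.93 and −2.06). Of 14 cohesin genes 4 were called lower, with Sgo2a, a shugoshin, at −2.23 and Esco2, a cohesin acetyltransferase, at −2.28, and the list had a median of −0.66.

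The APC/C is the complex on which Cdc20 and Ube2c act. Of 17 genes of that list 1 was called lower, a share near the 6.70% of all symbols, and this was Fbxo5, which encodes the APC/C inhibitor Emi1 and went from 690 ± 38.6 to 212 ± 20.8 normalized counts (SD, n = 4 each; log2 −1.70, SE 0.0929, adjusted p = 4.3e-17). The list had a median of −0.24, with 9 lower and 6 higher at the adjusted p alone, and Anapc1, the largest subunit of the complex, stood at −0.95 (SE 0.0752, adjusted p = 5.98e-13). Of 9 other cytokinesis genes 3 were called lower, with Cit, citron kinase, at −2.17. At the adjusted p alone 4 were lower and 4 higher, where 22.2% of all symbols were each way. The list had a median of −0.09, near the −0.05 of all symbols. Among the 4 higher was Chmp4b, of the ESCRT-III complex that severs the last bridge between daughter cells, at 0.92 (SE 0.0516, adjusted p = 8.43e-17).

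The DREAM and MuvB complexes and the E2F family regulate transcription of these genes. Of 19 genes of this list, 6 were called lower in CITED against MDSC, where 6.70% of all symbols were. Mybl2, or B-Myb, which joins MuvB to activate G2 and mitosis genes, went from 1181 ± 15.6 in MDSC through 523 ± 41.3 in MDSC-NP-Blk to 277 ± 25.2 in CITED (SD, n = 4 each; log2 −2.09 in CITED against MDSC, SE 0.0840, adjusted p = 1.38e-20). E2f8, an E2F-family repressor whose own transcript cycles, stood at −2.28 (SE 0.109, adjusted p = 1.16e-18). The median of this list was −0.46.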

How the data were processed

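RNA-seq counts of 12 libraries were analyzed, with 4 in each of the groups MDSC, MDSC-NP-Blk, and CITED taken from their titles. The authors deposited raw counts, 1 whole number for each gene symbol and library, for poly(A) RNA sequenced as paired-end reads of 150 bases. Per the labels and methods these were made with Salmon 1.4.0 against GENCODE transcripts of GRCm39 (release not given in the sources used here) and R 4.3.2, without normalization. Salmon assigns reads shared by similar transcripts by estimation, which can blur genes with pseudogenes.

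Symbols whose counts over all 12 libraries came to 2 or more, the filter of the study, were tested with the edgeR 4.0.16 quasi-likelihood test in R 4.3.3 (TMM, group as the only term, all 12 libraries), with Benjamini-Hochberg adjustment over the 17676 symbols of a comparison. The study used DESeq2, which is an alternative here (1.42.0). Normalized counts are counts divided by the TMM-scaled library size, at the scale of the mean library; levels were compared between genes only per kilobase of the canonical transcript (GENCODE M39). Shared sequence is the percent of 31-base words of a transcript found in other genes, given from 10%. The length trend was removed by a loess curve (span 0.5) per library, fitted over genes with a mean count of at least 50. The biological coefficient of variation was 9.03%. P-values measure the spread between these libraries.

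The mitosis genes and the lists were chosen with earlier results of these data known. Values by library are given, in each role, for the genes with the highest level per kilobase and with the largest and smallest change in CITED against MDSC, for genes not called lower, for genes that rose, and for some of those whose steps differed; from each further list the 2 genes with the lowest p and any called the other way are named, and Cdk1, Mki67, Cdc20 and Espl1 were added after their values were seen. Alternatives were DESeq2 size factors, library size alone, the DESeq2 test, other filters, the 8 libraries of a comparison, a replicate block, the length correction, robust estimation and each library left out; leaving out MDSC-NP-Blk libraries 1 and 4 together was added after seeing the data. Same-numbered libraries were checked for pairing. No libraries of a group were duplicates. The processing steps, as opposed to the blank NP and rapamycin steps, were tested on simulated data, with no result given here. Figures used Python 3.11.15, pandas 2.3.3 and matplotlib 3.10.9.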

Additional observations from a re-analysis of the deposited data

Results flagged for a closer look

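A test for a library far from the others of its group (Dixon's test at 95%, 4 libraries a group) was applied to the normalized counts of each mitosis gene and to their summed level. It marked 3 of 138 groups of libraries, where chance marks about 1 in 20. Ccnb2 stood at 999.37 normalized counts in CITED library 1, above the 874 to 894 of the other CITED libraries. Nusap1 stood at 611.03 in CITED library 2, below 724 to 734, and Nuf2 at 306.71 in CITED library 3, below 349 to 355. The 3 values are in 3 different libraries, and each lies on the same side of all MDSC and MDSC-NP-Blk libraries as the rest of its group.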

How the results depend on the processing

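Between 40 and 43 of 45 genes were called lower in CITED against MDSC under every alternative run. The shares of all symbols given above are those of the main fit, and those under the alternatives are not given here. The genes were not the same throughout, since Smc4 was not called with the length correction (−0.95), while Cenpa and Ube2c were called with it and with library size alone, and Incenp under several settings. Scaling by library size alone lowered the median of all symbols to −0.32 in CITED against MDSC and −0.29 in MDSC-NP-Blk against MDSC. Under it, 16 mitosis genes and 31 of the other mitosis genes were called lower with blank NPs, the steps differed for 9 genes with the rapamycin step lower and for 1 with it higher, the summed levels of MDSC and CITED were 4545 and 1277 CPM, and the ratios of MDSC to MDSC-NP-Blk and CITED were 1.84 and 3.56. Cdc25b reversed under it, to −0.14 in CITED against MDSC and −0.24 with blank NPs, and also without MDSC-NP-Blk library 4 (−0.00053 with blank NPs, where leaving out any library gave −0.00053 to 0.053). The number of genes higher at the adjusted p alone in CITED against MDSC was 1 in place of 2 with library size alone, with DESeq2 size factors and with the replicate block. With the length correction, 2 genes were higher at the adjusted p alone with blank NPs and 2 in CITED against MDSC-NP-Blk, and 9 of the other mitosis genes were called lower with blank NPs.

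Without MDSC-NP-Blk libraries 1 and 4, 3 mitosis genes and 8 of the other mitosis genes were called lower with blank NPs, and the summed level of MDSC-NP-Blk was 2789 CPM. With 1 library left out at a time, the mitosis genes called lower ranged from 40 to 41 in CITED against MDSC, 4 to 9 with blank NPs and 24 to 31 in CITED against MDSC-NP-Blk, the genes higher in CITED against MDSC at the adjusted p alone from 1 to 2, the genes lower at the rapamycin step from 19 to 27, and the other mitosis genes called lower with blank NPs from 9 to 16. Correlations between the deviations of same-numbered libraries were −0.0858 to 0.145 over 10555 genes. They show no strong pairing, but with 4 libraries a group they cannot settle whether same-numbered libraries share a preparation. With the replicate block, 40, 5, 27 and 24 genes were called in the order above, and with the DESeq2 test 41, 5, 26 and 24. The lowest count of a mitosis gene in a library was 63.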
